A study of Mus musculus with 9 samples.

Results

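The early growth response (Egr) factors, their Nab corepressors and a group of other early response genes were described across resting, RANKL-treated and uridine-treated RAW264.7 cells. The members were Egr1, Egr2, Egr3, Nab1, Nab2, Ier2, Ier3, Ier5 and Nr4a1. They were matched by gene symbol, and all 9 were found among the 56691 genes of the table. The choice was made with earlier results of these data known. All 9 reached 1 FPKM (fragments per kilobase of exon, scaled to the library total) in at least 3 libraries and so belonged to the 11995 genes tested. RAW264.7 is a mouse macrophage line that forms osteoclasts, the cells that resorb bone, when given RANKL, a cytokine of the TNF family. Messenger RNA was sequenced from 3 groups of 3 libraries. The control cells received no RANKL, the RANKL cells received RANKL, and the RANKL + UD cells received RANKL together with uridine (UD), a pyrimidine nucleoside, all in culture for 3 days. The libraries carry no genotype beyond that of the 1 line, and their labels give no dose. The replicates are called biological, but whether they came from separate cultures was not given, so the p-values measure the spread between these samples, which may be technical.

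Early response genes are transcribed within minutes of a stimulus without new protein synthesis, typically through the ERK kinases, serum response factor (SRF) with its ternary complex partners, and CREB. Egr1, Egr2 and Egr3 encode zinc finger transcription factors that bind a shared GC-rich element, while Nab1 and Nab2 encode corepressors that bind the Egr proteins, and are themselves Egr targets in several cell types. In the macrophage lineage, Egr1 and Egr2 act with Nab2 downstream of PU.1 in favouring macrophage genes. Egr2 with its Nab partners has been described as a brake on osteoclast formation, and Ier2, Ier3, Ier5 and the orphan nuclear receptor Nr4a1 belong to the same early response class.

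The promoters of Egr2, Nab2 and Nab1 are shown because Egr2 and Nab2 were the members that fell most with UD, whereas Nab1 did not. Each is the 250 bases that precede a RefSeq start site (GRCm38.p6), 5′ to 3′ on the coding strand. Capitals mark the CArG box bound by SRF, the TGACG motif (CGTCA on the other strand), the EGR site (GCGTGGGCG or GCGGGGGCG) and the kappa-B site. TGACG is only a part of the cyclic AMP response element, TGACGTCA. Each motif was searched on both strands.
Egr2, 1 of its 5 windows, chr10:67537619-67537868, plus strand: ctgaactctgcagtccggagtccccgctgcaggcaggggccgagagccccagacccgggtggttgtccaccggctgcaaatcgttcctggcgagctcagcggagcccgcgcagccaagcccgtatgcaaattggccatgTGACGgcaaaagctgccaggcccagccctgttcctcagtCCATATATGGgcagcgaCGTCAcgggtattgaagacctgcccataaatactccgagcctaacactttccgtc
Nab2, chr10:127666704-127666953, minus strand: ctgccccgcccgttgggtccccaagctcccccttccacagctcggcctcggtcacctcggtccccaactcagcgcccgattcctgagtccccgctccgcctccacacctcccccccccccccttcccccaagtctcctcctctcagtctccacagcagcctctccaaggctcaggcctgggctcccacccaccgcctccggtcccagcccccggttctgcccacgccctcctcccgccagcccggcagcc
Nab1, chr1:52500449-52500698, minus strand: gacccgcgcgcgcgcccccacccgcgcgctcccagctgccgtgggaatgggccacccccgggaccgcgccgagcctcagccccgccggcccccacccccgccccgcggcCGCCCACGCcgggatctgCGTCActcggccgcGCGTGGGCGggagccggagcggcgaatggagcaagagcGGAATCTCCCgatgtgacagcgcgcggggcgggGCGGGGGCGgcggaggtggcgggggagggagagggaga

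The Egr2 sequence held a CArG box, CCATATATGG, that began 72 bases before the start site, with TGACG motifs on either side at -111 and -55. Another Egr2 window, which opens at position 67537316 of chromosome 10, held the CArG box CCTTTTTTGG, also at -72. The windows that open at 67537620 and 67537680 overlap the printed one and repeat its CArG box and TGACG motifs. The window that opens at 67535249 held none of the marked motifs. A CArG box occurred in 1.63% and a TGACG motif in 20.8% of the 32851 mouse promoter windows of the same length, which run from 250 bases before to 50 bases after a start site. The Nab1 sequence held 3 EGR sites, at -141, -109 and -38, together with a TGACG motif at -123 and a kappa-B site at -71. EGR sites occurred in 3.47% and kappa-B sites in 4.51% of all windows. The Nab1 and Nab2 windows were 81.7% and 74.0% G or C, where the median over all windows was 52.7%. The Nab2 sequence held none of the marked motifs and only 1 GC box (GGGCGG, which can overlap the end of an EGR site). A GC box was present in 35.7% of windows, and the Nab1 sequence held several. Among the other members, the Nr4a1 window held 4 TGACG motifs, at -233, -213, -69 and -40, an EGR site at -60 and a kappa-B site at -3. In Ier3 the kappa-B site GGAGTTCCCC began at -92, and the Ier5 window held 2 GC boxes. RefSeq windows were matched for 6 of the 9 members. Egr1, Egr3 and Ier2 had no window. No window of a member held the full cyclic AMP response element, TGACGTCA, which occurred in 1.79% of all windows. None held an AP-1 site (TGANTCA, N being any base), which occurred in 7.81%. These are matches of letters and no binding was measured.

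Total counts ran from 15951800 to 19746862 per library. The 6 macrophage markers summed to 8872 to 9460 FPKM in control, 2370 to 2600 in RANKL and 2069 to 2197 in RANKL + UD. The 8 osteoclast markers, of which 7 reached 1 FPKM, summed to 46.7 to 49.9, 2639 to 2843 and 1665 to 1702 FPKM. None of the 2 to 4 markers listed for each of T cells, B cells, fibroblasts or osteoblasts, neutrophils, endothelium and epithelium reached 1 FPKM in any library. The highest sum of any of these lists was 0.44 FPKM. With RANKL the macrophage sum fell and the osteoclast sum rose, and both sums were lower with UD than with RANKL alone. A sum can be set by its most abundant gene, and single markers are not given. The part of these changes in the results for the members was not tested. In bulk RNA, fewer cells of a type and less RNA per cell cannot be told apart.

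The 9 members lay on 7 chromosomes, and most were short, with 7 spanning under 8000 bases, as did 30.1% of all genes tested. In the deposited coordinates (the build did not match the GRCm38 annotation, so they are not to be set against the promoter positions above), Egr1 (ENSMUSG00000038418) lay on chromosome 18 from 34992876 to 34998037, plus strand. Egr2 (ENSMUSG00000037868) ran from 67371305 to 67378018 on the plus strand of chromosome 10, and Nab2 (ENSMUSG00000025402) from 127496787 to 127504437 on the minus strand of the same chromosome. Egr3 (ENSMUSG00000033730) was on chromosome 14 (70314652 to 70320063, plus strand) and Nr4a1 (ENSMUSG00000023034) on chromosome 15 (101152150 to 101172676, plus strand). Nab1 (ENSMUSG00000002881, 52496453 to 52539838) and Ier5 (ENSMUSG00000056708, 154972107 to 154975382) were both on the minus strand of chromosome 1. Ier3 (ENSMUSG00000003541) lay on chromosome 17 from 36132576 to 36133815, plus strand, and Ier2 (ENSMUSG00000053560) on chromosome 8 from 85387960 to 85389483, minus strand. For Ier2 and Ier5 the exonic length, 1524 and 3276 bases, equalled the whole span, so that no intron was annotated.

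In control cells, mean levels in FPKM, a unit that corrects for gene length, ran from Nab1 (39.2 ± 2.48, SD, n = 3 in each group) and Ier2 (38.5 ± 4.43) through Egr1 (29.6 ± 1.29), Ier3 (27.4 ± 2.03), Egr2 (22.8 ± 0.611), Ier5 (22.6 ± 0.0751) and Nab2 (16.6 ± 1.62) to Egr3 (5.10 ± 0.586) and Nr4a1 (1.59 ± 0.178). Nab1 and Ier2, Egr1 and Ier3, and Egr2 and Ier5 were neighbours whose libraries overlapped. The order was different with RANKL, where Nab1 (27.7 ± 0.506) and Egr2 (19.3 ± 0.773) led and Egr1 (3.23 ± 0.488) stood below Ier2 (15.4 ± 0.0757), Nab2 (14.7 ± 1.01), Ier5 (14.3 ± 1.28) and Ier3 (7.67 ± 1.50), with the Nab2 libraries overlapping those of both Ier2 and Ier5. With UD added, Nab1 (31.6 ± 0.157) and Ier5 (15.7 ± 1.85) led, and Egr2 (9.35 ± 0.785) overlapped with Nab2 (9.59 ± 0.559). Egr3 and Nr4a1 were the lowest members of the RANKL and RANKL + UD groups too, at 1.48 ± 0.142 and 1.11 ± 0.0777 FPKM with RANKL and at 1.58 ± 0.270 and 0.880 ± 0.113 FPKM with UD.

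**Figure D1:**
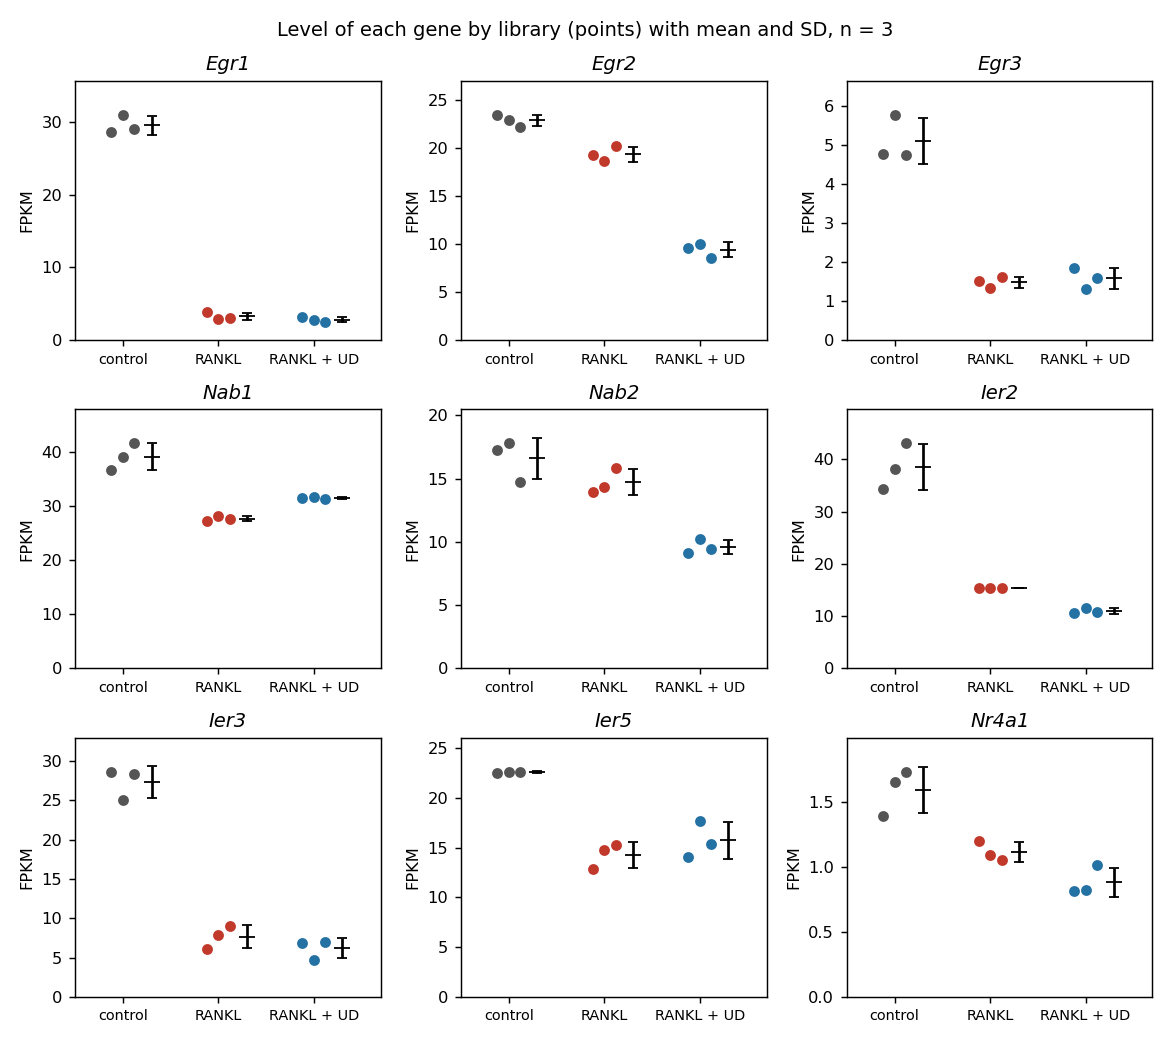
Level of each of the 9 members in FPKM (linear axis from 0) in the 3 control, 3 RANKL and 3 RANKL + UD libraries, one point per library, with the group mean and SD as a bar at its right. Egr1, Egr3, Ier2 and Ier3 dropped with RANKL, whereas most of the fall of Egr2 and Nab2 came with RANKL + UD. Egr1, Ier2, Ier3 and Nr4a1 also had their lowest mean in the RANKL + UD libraries.

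Comparing RANKL with control cells asked how osteoclast induction moved these genes. The cells were in culture for 3 days, so the response within minutes of adding RANKL or UD was not measured. Egr1 was the member that fell most, 8.61-fold. Egr3, Ier3 and Ier2 fell 3.25-fold, 3.36-fold and 2.35-fold, and Ier5 and Nab1 fell by less. Egr2 and Nab2, at 1.11-fold and 1.06-fold lower, did not pass the test. By edgeR's quasi-likelihood test across all genes (Benjamini-Hochberg adjusted p under 0.05), 6 of the 9 members were lower, none was higher and 3 were not called, where 30.2% of all genes tested were lower and 27.3% higher. None was higher at an unadjusted p under 0.05 either, nor by DESeq2 or limma. The median log2 fold change was -0.58 over the 9 members and -0.03 over all genes tested.

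Among the Egr factors, Egr1 measured 28.6, 31.0 and 29.0 FPKM in the control libraries and 3.79, 2.94 and 2.95 FPKM with RANKL. The groups were far apart, and the highest RANKL library held a small part of the lowest control. The log2 fold change was -3.11 (SE 0.092, edgeR adjusted p = 3.88e-17), and 0.834% of all genes tested had a lower one. Egr3, an Egr1 paralogue that binds the same element, measured 4.78, 5.78 and 4.75 FPKM in control and 1.51, 1.33 and 1.61 FPKM with RANKL, again without overlap, and fell by 1.70 on the log2 scale (SE 0.139, edgeR adjusted p = 9.81e-10). Egr2 measured 23.4, 22.9 and 22.2 FPKM in control and 19.2, 18.6 and 20.1 FPKM with RANKL. Every RANKL library of Egr2 lay below every control library, but the distance was small and the log2 fold change of -0.15 (95% confidence interval -0.29 to -0.02) just missed the threshold (edgeR adjusted p = 0.0506). It passed when libraries were scaled to total counts (-0.24, edgeR adjusted p = 0.00326), by limma on FPKM and without control replicate 3, RANKL replicate 3 or RANKL + UD replicate 3.

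Of the corepressors, Nab1 measured 36.7, 39.2 and 41.7 FPKM in control and 27.2, 28.2 and 27.6 FPKM with RANKL. The groups did not overlap, and the log2 fold change was -0.41 (SE 0.052, edgeR adjusted p = 6.18e-07). Nab2 measured 17.3, 17.8 and 14.8 FPKM in control and 14.0, 14.3 and 15.9 FPKM with RANKL. Its groups overlapped, because RANKL replicate 3 exceeded control replicate 3, and the log2 fold change was -0.09 (95% confidence interval -0.26 to 0.08, edgeR adjusted p = 0.368). Nab2 shares 1668 bases with Nemp1 on the opposite strand, and whether reads were counted by strand was not stated. Nemp1 averaged 6.59, 3.14 and 3.92 FPKM in control, RANKL and RANKL + UD, falling with RANKL (log2 fold change -0.98, edgeR adjusted p = 4.13e-10) and rising with UD (0.23, edgeR adjusted p = 0.0223), and its part in the Nab2 values was not tested.

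Ier2, a nuclear regulator induced by growth factors, measured 34.3, 38.2 and 43.1 FPKM in control and 15.5, 15.3 and 15.4 FPKM with RANKL. The 3 RANKL libraries were almost equal and far below all controls (log2 fold change -1.24, SE 0.086, edgeR adjusted p = 6.99e-11). Ier3, a stress-induced regulator of cell survival, measured 28.7, 25.0 and 28.4 FPKM in control and 6.06, 7.91 and 9.03 FPKM with RANKL, a log2 fold change of -1.75 (SE 0.141, edgeR adjusted p = 8.33e-10). Ier5, which has been linked to heat shock factor activity, measured 22.5, 22.6 and 22.6 FPKM in control and 12.8, 14.7 and 15.2 FPKM with RANKL. None of these groups overlapped, and Ier5 had a log2 fold change of -0.58 (SE 0.078, edgeR adjusted p = 1.97e-06). Nr4a1, the least expressed member with only 47 to 114 reads per library, measured 1.39, 1.65 and 1.73 FPKM in control and 1.20, 1.09 and 1.05 FPKM with RANKL. All its control libraries were higher, but the log2 fold change of -0.42 (95% confidence interval -0.81 to -0.03) had an edgeR adjusted p of 0.0590. The call was made when libraries were scaled to total counts, by limma on FPKM and without control replicate 1. Nr4a1 overlaps another gene of its strand, ENSMUSG00000121015, over 2740 bases, and that gene held at most 29 reads in a library.

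**Figure D2:**
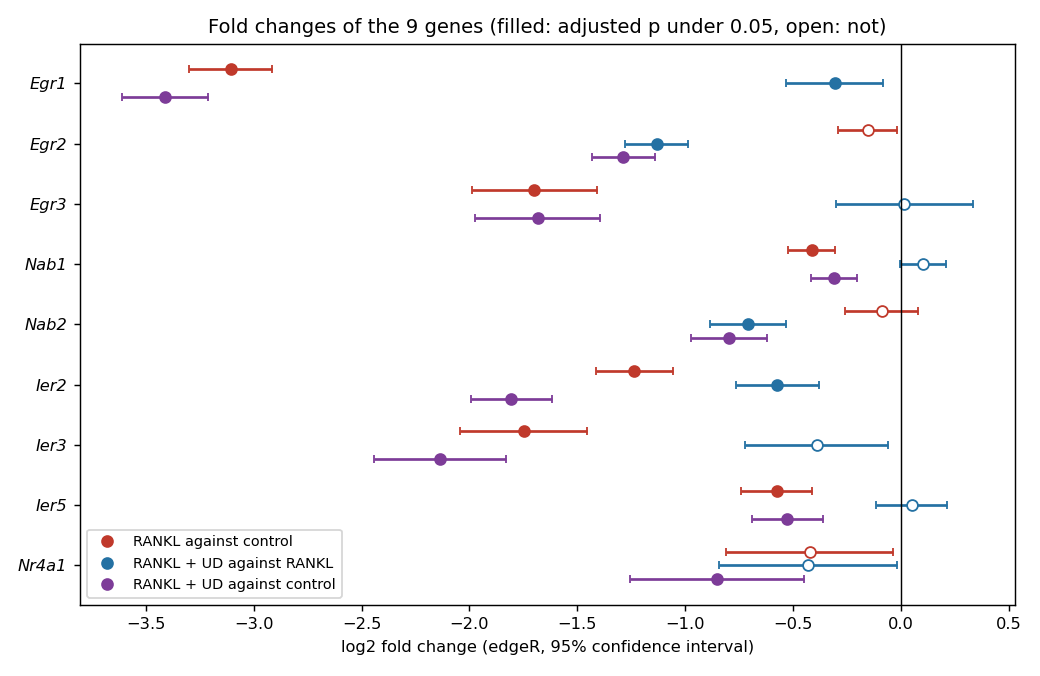
Log2 fold change of each member with its 95% confidence interval (edgeR, 3 libraries per group) for RANKL against control (red), RANKL + UD against RANKL (blue) and RANKL + UD against control (purple), with filled points where adjusted p was under 0.05. Egr1 lies farthest left with RANKL, at -3.11, and Egr2 farthest left for UD against RANKL, at -1.13.

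Adding UD to RANKL asked what the nucleoside changed in differentiating cells. The members that moved most here, Egr2 and Nab2, were among those not called for RANKL alone. Egr2 fell 2.19-fold and Nab2 fell 1.63-fold. Ier2 fell a further 1.49-fold and Egr1 a further 1.24-fold. Egr3, Nab1, Ier3, Ier5 and Nr4a1 were not called. By edgeR, 4 of the 9 members were lower and none higher, where 20.2% of all genes tested were lower and 18.6% higher. None of the 9 was higher at an unadjusted p under 0.05 or by DESeq2, and 1, Nab1, was higher by limma on FPKM. The members' median log2 fold change was -0.39, and that of all genes tested was 0.005. This comparison shares its RANKL libraries with the one above. Scaling to total counts moved the balance of all calls, with 66.2% of them higher in place of 48.0% for UD against RANKL, and 36.8% in place of 47.5% for RANKL against control.

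Egr2 measured 19.2, 18.6 and 20.1 FPKM with RANKL and 9.58, 10.0 and 8.48 FPKM with RANKL + UD. All UD libraries lay far below all RANKL libraries, and the log2 fold change was -1.13 (SE 0.070, edgeR adjusted p = 1.12e-10). Only 1.92% of all genes tested had a lower fold change. Nab2, its corepressor, measured 14.0, 14.3 and 15.9 FPKM with RANKL and 9.12, 10.2 and 9.45 FPKM with UD, also without overlap, for a log2 fold change of -0.71 (SE 0.085, edgeR adjusted p = 1.15e-06). Ier2 measured 15.5, 15.3 and 15.4 FPKM with RANKL and 10.6, 11.6 and 10.8 FPKM with UD. It was lower in every UD library and fell by 0.57 on the log2 scale (SE 0.093, edgeR adjusted p = 5.17e-05). Egr2, Nab2 and Ier2 stayed called under all 17 alternative fits.

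For Egr1 the evidence was weaker. It measured 3.79, 2.94 and 2.95 FPKM with RANKL and 3.10, 2.76 and 2.44 FPKM with UD, and the groups overlapped because UD replicate 1 exceeded RANKL replicates 2 and 3. The log2 fold change was -0.31 (SE 0.108, edgeR adjusted p = 0.0296). Without RANKL replicate 1 it was -0.17 (edgeR adjusted p = 0.224), and the call was also lost without RANKL + UD replicate 2 (adjusted p = 0.0740) or replicate 3 (adjusted p = 0.153), with total-count scaling (-0.22, adjusted p = 0.109), by limma on FPKM and when only the RANKL and RANKL + UD libraries were fitted (edgeR adjusted p = 0.0648).

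The remaining members gave no call. Egr3 measured 1.51, 1.33 and 1.61 FPKM with RANKL and 1.85, 1.31 and 1.59 FPKM with UD, and the 95% confidence interval of its log2 fold change ran from -0.30 to 0.33. Ier5 measured 12.8, 14.7 and 15.2 FPKM against 14.0, 17.7 and 15.4 FPKM, with an interval from -0.12 to 0.22. Both genes overlapped between groups. Nab1 was the one corepressor without a fall, at 27.2, 28.2 and 27.6 FPKM with RANKL and 31.6, 31.7 and 31.4 FPKM with UD. All its UD libraries were higher, yet the log2 fold change was 0.10 (95% confidence interval -0.005 to 0.21, edgeR adjusted p = 0.125). It was called higher with total-count scaling (0.19, edgeR adjusted p = 0.00612) and by limma on FPKM. Ier3 measured 6.06, 7.91 and 9.03 FPKM with RANKL and 6.79, 4.72 and 7.01 FPKM with UD, which overlap, with a log2 fold change of -0.39 (edgeR adjusted p = 0.0593) that passed by DESeq2 (adjusted p = 0.0385), without the filter on low values (adjusted p = 0.0342), without RANKL replicate 1 (-0.53, adjusted p = 0.0129) and without RANKL + UD replicate 3 (adjusted p = 0.0466). Without RANKL + UD replicate 2 it shrank to -0.23 (edgeR adjusted p = 0.286), and without RANKL replicate 3 to -0.26 (edgeR adjusted p = 0.273). Nr4a1 measured 1.20, 1.09 and 1.05 FPKM against 0.81, 0.82 and 1.01 FPKM. Its UD libraries were all below the RANKL libraries, and the log2 fold change of -0.43 had an edgeR adjusted p of 0.0942.

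**Figure D3:**
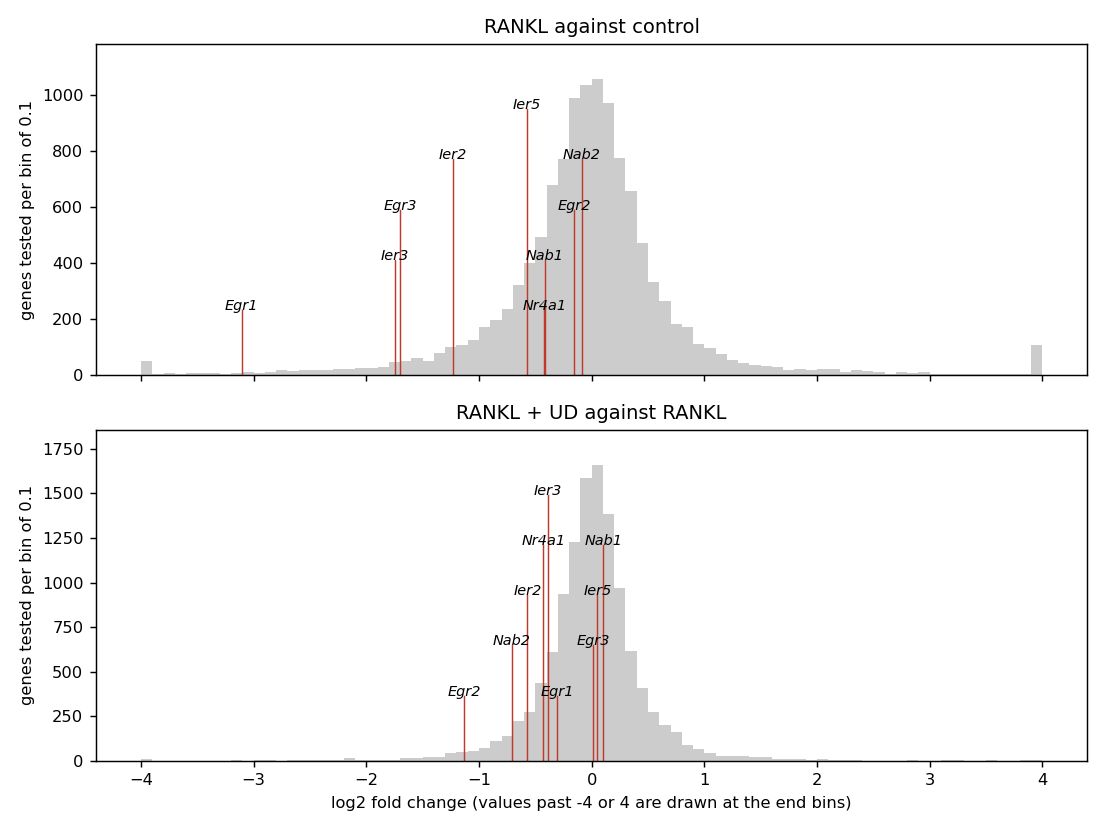
Distribution of log2 fold changes over the 11995 genes tested (grey bars, number of genes per bin) for RANKL against control above and RANKL + UD against RANKL below, with a red line at each member. Egr1 sits at -3.11 in the upper panel and at -0.31 in the lower, while Egr2 sits at -0.15 in the upper panel and at -1.13 in the lower (line heights carry no value).

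Set against control, the RANKL + UD cells had lower levels of all 9 members, where 27.3% of all genes tested were lower and 26.7% higher by edgeR. None of the 9 was higher by edgeR, DESeq2 or limma, at an adjusted or an unadjusted p under 0.05. This comparison uses the libraries of both comparisons above. Egr1 was 10.6-fold lower (log2 fold change -3.41, edgeR adjusted p = 1.88e-17), Ier3 4.40-fold, Ier2 3.50-fold, Egr3 3.21-fold and Egr2 2.44-fold. Smaller falls were those of Nr4a1 (log2 fold change -0.85, edgeR adjusted p = 0.00084), Nab2 (-0.80), Ier5 (-0.53) and Nab1 (-0.31). In each member all 3 RANKL + UD libraries lay below all 3 control libraries. The share of all genes tested with groups so separated was not counted, so no weight is put on this. The median was -1.29 over the members and -0.002 over all genes tested.

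The makeup of the Egr and Nab families also differed between groups by more than the spread between libraries. Shares within a family are measured inside each library, so scaling between libraries does not enter them. Egr1, Egr2 and Egr3 together measured 56.8, 59.7 and 56.0 FPKM in control, 24.5, 22.9 and 24.7 FPKM with RANKL and 14.5, 14.1 and 12.5 FPKM with RANKL + UD. Egr1 gave 51.4% ± 0.896 (SD, n = 3) of that sum in control, 13.4% ± 1.81 with RANKL and 20.2% ± 1.03 with UD. The share of Egr2 was 39.7% ± 1.45, 80.4% ± 1.75 and 68.3% ± 2.60. Thus Egr1 was the largest Egr transcript pool in control cells and Egr2 the largest in both RANKL-treated groups. The groups did not overlap in the share of Egr1 or of Egr2. Each exact permutation test of these gave the two-sided p of 0.1 that is the smallest possible for 3 against 3 libraries. The share of Egr3 was 8.86% ± 0.715, 6.16% ± 0.352 and 11.6% ± 1.97, and its control and RANKL + UD libraries overlapped (exact permutation p = 0.2, two-sided).

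The Nab sum was 54.0, 57.0 and 56.4 FPKM in control, 41.2, 42.6 and 43.5 FPKM with RANKL and 40.7, 41.9 and 40.8 FPKM with UD. All RANKL values lay below all control values (exact permutation p = 0.1), while the RANKL and RANKL + UD values overlapped (exact permutation p = 0.2, two-sided). Within it, Nab2 gave 29.8% ± 3.18 in control, 34.7% ± 1.57 with RANKL and 23.3% ± 0.990 with UD. Summed Egr per summed Nab level was 1.03 ± 0.0334 in control, 0.567 ± 0.0293 with RANKL and 0.333 ± 0.0254 with UD, with no overlap between groups (exact permutation p = 0.1 for each pair). Among the Ier genes, Ier5 gave 25.6% ± 1.34 of the summed level in control, 38.2% ± 0.760 with RANKL and 47.7% ± 3.88 with UD, also without overlap (exact permutation p = 0.1). The Ier2 share overlapped between control (43.5%) and RANKL (41.4%, exact permutation p = 0.5) and was 33.5% with UD. The Ier3 share was 31.0% in control and overlapped between RANKL (20.4%) and RANKL + UD (18.9%, exact permutation p = 0.7).

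**Figure D4:**
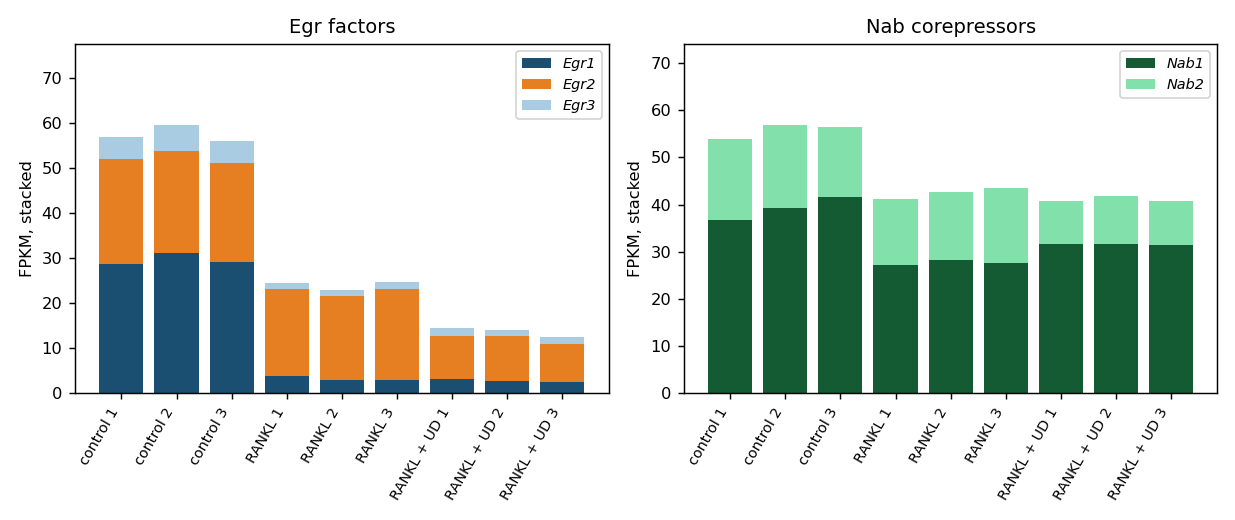
Stacked levels in FPKM of Egr1, Egr2 and Egr3 (left) and of Nab1 and Nab2 (right) in each of the 9 libraries. The Egr stack shrinks from 56.0 to 59.7 FPKM in control to 12.5 to 14.5 FPKM with RANKL + UD, with Egr2 the largest piece in the RANKL and RANKL + UD libraries.

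Other early response genes, a list of 47 of which 37 were tested, split with RANKL and leaned lower with UD. The list was written with earlier results of these data known. With RANKL, 16 were higher and 19 lower (list median log2 fold change -0.24), where 27.3% of all genes tested were higher and 30.2% lower. With UD added, 2 were higher and 21 lower (median -0.48), where the shares over all genes were 18.6% and 20.2%. Fos, the AP-1 subunit required for osteoclast formation, averaged 196 FPKM in control, 35.9 with RANKL and 21.8 with UD, with a log2 fold change of -2.36 for RANKL (edgeR adjusted p = 7.95e-19). Dusp1, a phosphatase that turns off MAP kinases, fell by 3.16 and Arc by 2.74 on the log2 scale. Fosb held 1437 to 1806 reads in control libraries, 6 to 13 with RANKL and 0 to 10 with UD, too few there for a fold of any precision.

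RANKL raised others. Myc, which promotes growth and metabolism, rose from 0.767 ± 0.0551 to 36.3 ± 1.14 FPKM (SD, n = 3), and Fosl2, another AP-1 subunit, from 5.14 ± 0.519 to 64.3 ± 2.25 FPKM. Dusp5, a nuclear ERK phosphatase, rose by a log2 fold change of 2.53 (edgeR adjusted p = 6.47e-09). Hbegf, an EGF receptor ligand, had 1, 14 and 2 reads in the control libraries and 225 to 258 with RANKL.

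The genes of this list that fell most with UD were Atf3, a stress-induced CREB family factor (log2 fold change -2.16, edgeR adjusted p = 3.71e-12), Plk2 (-1.88), Klf2 (-1.48) and Myc (-1.46, edgeR adjusted p = 1.60e-12). Myc was thus at 14.0 FPKM with UD, above its control level. Klf10, a TGF-β-inducible repressor, was among the 2 that rose (log2 fold change 1.17, edgeR adjusted p = 1.57e-09), and its mean of 15.5 FPKM with UD stood beside 15.4 in control and 6.49 with RANKL. Btg2, an antiproliferative gene, was the other (0.26, edgeR adjusted p = 0.0436). Of the closest relatives of the members, Egr4 was listed at 0 in every library, Nr4a3 reached 0.12 FPKM and Nr4a2 1.48 FPKM at most.

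**Figure D5:**
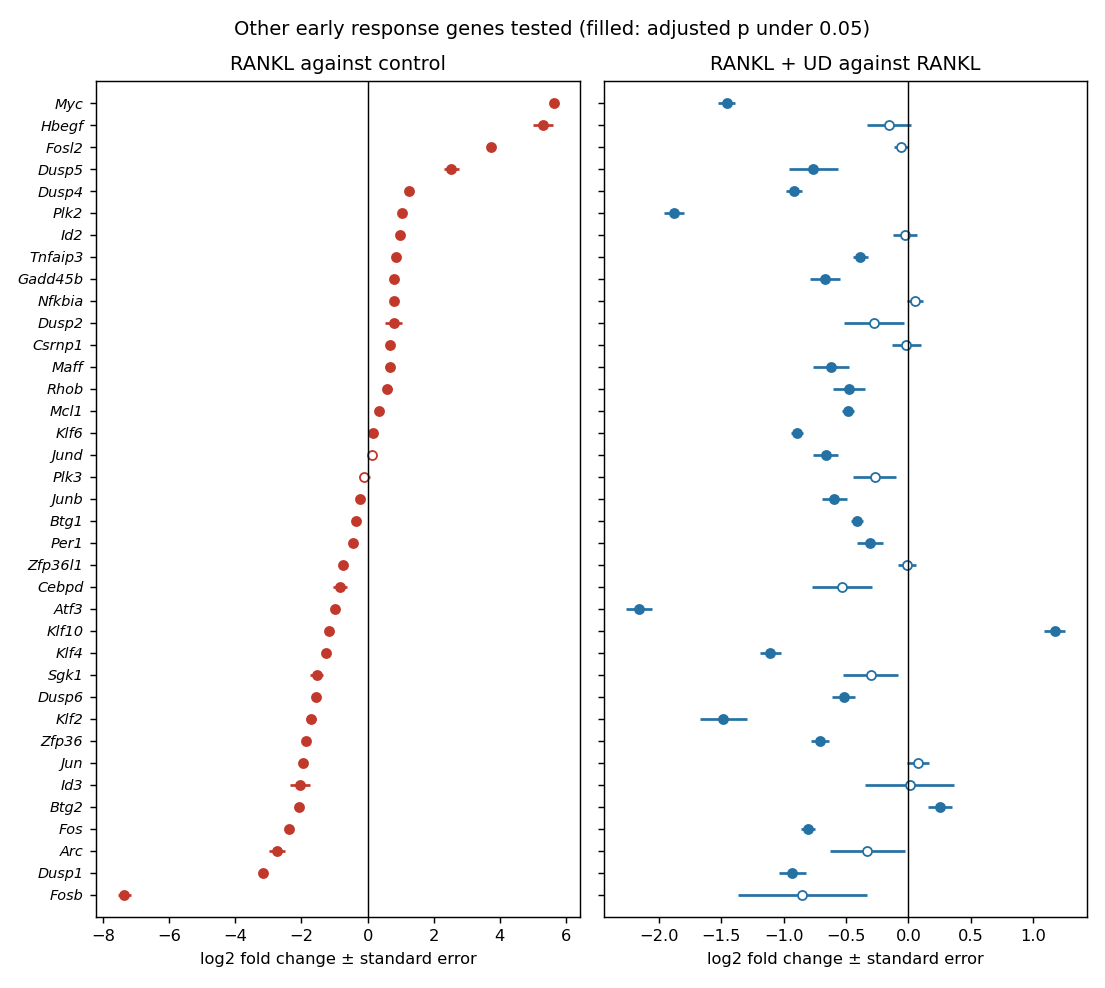
Log2 fold changes with standard errors of the 37 other early response genes tested, ordered by the RANKL against control value (left) and shown for RANKL + UD against RANKL (right), filled where edgeR adjusted p was under 0.05. The left panel holds 16 higher and 19 lower genes and the right panel 2 higher and 21 lower. Over all genes tested, 27.3% were higher and 30.2% lower with RANKL, and 18.6% and 20.2% with UD. The points of Fosb and Hbegf rest on groups with few reads.

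Genes upstream of the early response formed the ERK, SRF and CREB list. Of 20 tested, 3 were higher and 9 lower with RANKL (median log2 fold change -0.15), where 27.3% of all genes tested were higher and 30.2% lower. With UD, 2 were higher and 6 lower (median -0.05), where the shares over all genes were 18.6% and 20.2%. Map2k1, the kinase that activates ERK, was higher with RANKL (0.57, edgeR adjusted p = 4.23e-09) and lower with UD (-0.33, edgeR adjusted p = 3.11e-05). Map2k2 (0.40) and Braf (0.26) were also higher with RANKL, whereas Elk3 (-0.54), a ternary complex factor, the kinases Rps6ka5 (-0.52) and Rps6ka4 (-0.51), and Creb1 (-0.38) were lower. With UD, Elk3 (0.38) and Rps6ka1 (0.22) were higher, and Ets2 (-0.56), Mapk3 (-0.52), which encodes ERK1, and Mrtfb (-0.29), a coactivator of SRF, were lower.

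The list of known Egr targets held 22 genes, of which 15 were tested, among them Nab1 and Nab2 themselves and Atf3 of the list above. With RANKL, 5 were higher and 7 lower (median log2 fold change -0.09), beside 27.3% and 30.2% of all genes tested. With UD, 2 were higher and 8 lower (median -0.37), beside 18.6% and 20.2% of all genes. Tnf, an inflammatory cytokine, fell with RANKL (-1.40, edgeR adjusted p = 9.54e-14), as did Atf3 (-0.99) and Nab1. F3, which encodes tissue factor, rose with RANKL (1.29, edgeR adjusted p = 4.45e-06) along with Pdgfb (1.14), Vegfa (0.83) and Cd44 (0.29). With UD, Atf3, F3 (-0.82, edgeR adjusted p = 0.00098), the angiogenic factor Vegfa (-0.78, edgeR adjusted p = 6.17e-10) and Nab2 fell most, while Pdgfa (0.27) and Icam1 (0.21) were higher.

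Nab proteins can recruit the NuRD chromatin complex, through its Chd4 or Chd3 subunit. All 13 of its listed subunits were tested, and with RANKL 4 were higher and 4 lower (median log2 fold change -0.01), with UD 3 higher and 4 lower (median -0.04). Over all genes tested, the shares were 27.3% higher and 30.2% lower with RANKL and 18.6% and 20.2% with UD. Chd3 was higher with RANKL (0.61, edgeR adjusted p = 2.39e-08) and lower with UD (-0.27, edgeR adjusted p = 0.00141). Also higher with RANKL were Hdac2 (0.39), Mta1 (0.37) and Gatad2a (0.21), and lower were Mta3 (-0.63), Mta2 (-0.41), Mbd2 (-0.29) and Rbbp7 (-0.20). Rbbp7, a histone-binding subunit, was higher with UD (0.57, edgeR adjusted p = 9.47e-09), as were Hdac1 (0.23) and Rbbp4 (0.13), and Mta3 (-0.39), Gatad2b (-0.33) and Mta1 (-0.26) were lower.

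The genes whose levels followed each member most closely were found by Pearson's r over the 9 libraries on the log2 scale of counts scaled to library size, as a description, since the points share groups and libraries. Egr1 was most like Cd28, Ssh2 and Sash1 (each r = 0.997), and Egr3 like Sh3bp5 (r = 0.994), Wfdc17 and Sowahc. Egr2 was most like Epb41l2 (r = 0.996), Ccng2 (r = 0.996) and Cd47, and Nab2 like H1f0 (r = 0.988), Aldh6a1 and again Ccng2 (r = 0.985). Ccng2, a cyclin-related gene, averaged 13.4, 11.6 and 5.59 FPKM in control, RANKL and RANKL + UD. Nab1 was most like Scarb1 (r = 0.993) and Inf2. Ier2 was most like Akna (r = 0.998), Lgmn and Cd300ld, Ier3 like Nup62 (r = 0.995), Fam117b and Fosb, Ier5 like Ston1 (r = 0.987), Cdkn2d and Aif1, and Nr4a1 like Ulk1 (r = 0.982), Ugp2 and Dcaf12. Cd28, which was not on the T cell list above, averaged 5.69 FPKM in control. It averaged only 0.127 and 0.113 FPKM in RANKL and RANKL + UD, and Fosb 0.083 and 0.047 FPKM. The values of Cd28 and Fosb in these 2 RANKL-treated groups have little precision.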

How the data were processed

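RNA from RAW264.7 cells was sequenced as strand-specific paired reads in 9 libraries, 3 per group. The deposited table gives raw read counts per gene and FPKM values that the authors made from them, with each gene's exonic length, and the FPKM equal count per length and total count. Columns the table calls Model were read as RANKL. Processing notes name build mm10, yet the deposited coordinates were identical to the GRCm38 annotation for only 1472 of 52073 shared genes, and the aligner and counting tool were not given in the sources used here.

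The 11995 genes whose FPKM reached 1 in 3 or more libraries were tested by edgeR 4.0.16 (TMM scaling, quasi-likelihood, all 9 libraries in 1 fit) in R 4.3.3, with Benjamini-Hochberg adjustment over all of them. Ratios within families were compared by two-sided exact permutation tests. Alternatives were DESeq2 1.42.0, limma 3.58.1 on log2(FPKM + 1) and log2(FPKM + 0.1), other scalings, no filter, 6 libraries, a replicate block and each library left out. The test was also run on simulated counts that gave every gene the same spread, which the members did not have. That run is not used as support here. Members and lists were chosen with earlier results of these data known, and the TGACG motif was added after the promoter windows were read. All members were named, with up to 4 genes per list that rose or fell most in RANKL against control and in RANKL + UD against RANKL, and 3 genes most like each member. Some genes that this rule names are not reported here. Fosb and Hbegf are given as reads. Depth ran from 15951800 to 19746862 counts, and replicates differed by more than sampling noise. Promoters came from RefSeq.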

Additional observations from a re-analysis of the deposited data

How the results depend on the processing

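Of 459 values of single members under the alternatives, 430 kept their direction and side of the threshold, 7 lost a call, 18 gained one and 4 changed sign. Nab1 raised the members called higher with UD to 1 under total-count scaling and under limma with a pseudocount of 1 or 0.1, where edgeR gave 0. For UD against RANKL, leaving out 1 library at a time took the Egr3 log2 fold change from -0.12 to 0.13 and that of Ier5 from -0.039 to 0.124, and the members called lower from 3 to 4. Libraries of different groups were weakly correlated once group means were removed. The values ran from -0.03 to 0.10 for the same replicate number and from -0.10 to 0.06 for different numbers. Whether replicate numbers pair the libraries was thus not settled. With the replicate block, 5 members were lower with UD in place of 4, the added one being Ier3 (edgeR adjusted p = 0.0385). Total-count scaling gave 3350 higher calls for UD against RANKL in place of 2233. The lowest library held 47 reads of Nr4a1, 87 of Ier3 and 94 of Egr3, the fewest of the members.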

Other observations

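Spread between replicates differed among the members. The biological coefficient of variation that edgeR estimated was lowest for Nab1 (4.39%) and Egr2 (5.19%) and highest for Ier3 (10.4%) and Nr4a1 (10.8%), with a median of 6.85% over all genes tested. Within the RANKL group, Ier3 measured 6.06 FPKM in replicate 1 and 9.03 FPKM in replicate 3. The library with the highest Egr1 level in the RANKL group, replicate 1, was the one with the lowest Ier3 and Ier5 levels, and control replicate 2 held the highest Egr1 and Egr3 and the lowest Ier3 levels of its group.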
